A study of Mus musculus with 12 samples.

Results

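The mitochondrial ribosomal protein genes were described in the arcuate nucleus (ARC) of the hypothalamus of male mice, as a group of 76 genes whose symbols begin with Mrps or Mrpl followed by a number and at most 1 further letter. Of the 38283 genes in the deposited table, 29 carried a small subunit symbol (*Mrps*) and 47 a large subunit symbol (*Mrpl*), no symbol occurred more than once, and all 76 had a mean of at least 1 FPKM (sequenced fragments scaled to transcript length and library total), the level above which 14017 genes were tested. The choice used names only and no measured value. RNA was measured in 5 wild-type (WT) mice and 7 mice homozygous for R299Q γ2 AMPK (Homo), with 1 library per mouse. Both genotypes were C57BL/6 males aged 8 weeks with free access to food, born from crosses of heterozygous knock-in animals, and the R299Q change lies in the endogenous *Prkag2* gene of every cell rather than under a tissue-specific promoter. ARC was laser-captured from brain sections, its RNA was amplified across the whole transcriptome, and the libraries were sequenced.

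Mitochondria keep ribosomes of their own, which translate the few proteins encoded by mitochondrial DNA, all of them membrane subunits of the respiratory chain and ATP synthase. The RNAs of these ribosomes come from mitochondrial DNA, whereas every protein of the small and large subunit is encoded in the nucleus, made in the cytosol and imported. Some members descend from bacterial ribosomal proteins and others are found in mitochondria alone. Symbols do not follow structure throughout: the products of *Mrps18a* and *Mrps30* sit in the large subunit, and that of *Mrps36* has been assigned to the oxoglutarate dehydrogenase complex. The counts here keep the symbols.

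The 12 libraries listed between 15742 and 18635 genes above 0, and the widest gap in that number, 1674 genes, divided them into 7 with fewer genes (WT 1, WT 2 and Homo 1 to 5) and 5 with more genes (WT 3, WT 4, WT 5, Homo 6 and Homo 7). The labels name no batch for this division, which leaves 2 WT and 5 Homo libraries in the first set and 3 WT and 2 Homo in the second, so values are also given within each. The titles of Homo 6 and Homo 7 are worded differently from those of Homo 1 to 5, while the titles of the WT libraries are worded alike. Spearman correlations between libraries over the tested genes lay between 0.762 and 0.854. Fragment counts were not used here, so the depth behind a value is unknown. *Prkag2* was listed at 7.73 to 22.5 FPKM in WT and at 8.61 to 24.0 FPKM in Homo, and gene-level values do not show the knock-in change. Arcuate markers were present in every library, with 8 of 8 above 0. Their summed level lay between 1271 and 4482 FPKM in WT and between 3371 and 5133 FPKM in Homo, and was lowest in WT 3. The list includes *Agrp* and *Npy*, which the paper reports as higher in the mutant mice, so its sum does not compare arcuate content between genotypes.

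Every member was above 0 in all 12 libraries. The mean level of a member over the libraries spanned 82.2-fold, from 3.42 FPKM for *Mrpl1* to 282 FPKM for *Mrpl52*, with a median of 22.4 FPKM. Small and large subunit genes lay at the same typical level, with medians of 22.4 and 22.3 FPKM, against 7.57 FPKM for all genes tested, 352 FPKM for 78 cytosolic ribosomal protein genes and 129 FPKM for 36 nuclear genes of complex I. Only 5 members exceeded 100 FPKM, and together they held 31.6% of the summed level of all 76. These were *Mrpl52* (282 ± 82.3 FPKM, SD, n = 12), whose product is specific to mitochondrial ribosomes, *Mrps21* (161 ± 68.7), *Mrpl33* (133 ± 70.4), *Mrps12* (129 ± 33.4) and *Mrpl17* (111 ± 34.2). *Mrps12* encodes the counterpart of bacterial S12, which lines the decoding centre. The SDs of these 5 are wide enough that neighbours in this order below *Mrpl52* cannot be ranked. Among small subunit genes *Mrps18c* came next, at 68.3 ± 44.2 FPKM.

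At the low end 11 members lay under 10 FPKM. They included *Mrpl1*, whose product forms the mobile stalk beside the tRNA exit, at 3.42 ± 1.22 FPKM, *Mrps27*, which encodes a pentatricopeptide repeat protein, at 4.30 ± 2.52, and *Mrpl19* at 4.65 ± 2.62. *Mrps30* (5.31 ± 2.07 FPKM), *Mrpl45* (5.78 ± 1.57), whose product holds the ribosome at the inner membrane near the peptide exit, and *Mrps9* (6.23 ± 2.35) followed. Neighbours in this order differed by less than their spread. Most of these proteins occur as a single copy per ribosome, whereas their transcript levels per length differed widely, as the plot of levels by gene shows.

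**Figure D1:**
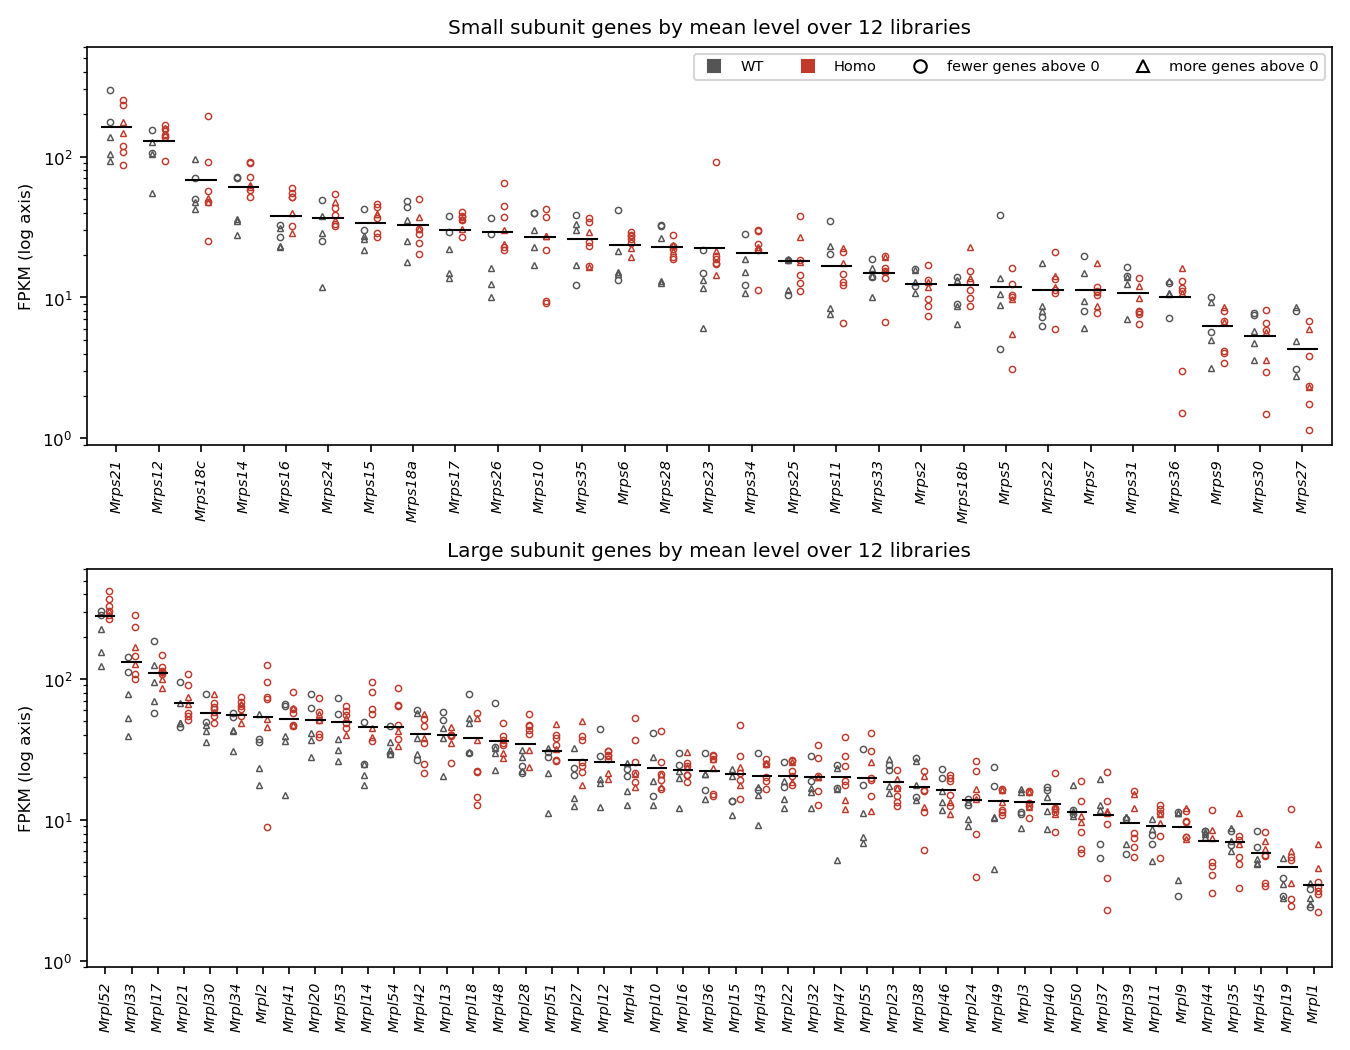
Level in FPKM (log axis) of each small subunit gene (top) and large subunit gene (bottom) in 5 WT (grey) and 7 Homo (red) libraries, with circles for the 7 libraries with fewer genes above 0, triangles for the 5 with more, and a bar at the mean of 12. Genes are ordered by mean, from 161 to 4.30 FPKM in the small subunit and from 282 to 3.42 FPKM in the large, and both genotypes are spread over the same range for most genes.

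Between libraries, the coefficient of variation of a member ranged from 20.04% to 99.98% with a median of 34.1%, and the ratio of its highest to its lowest library from 1.91 to 15.1 with a median of 3.27. The steadiest was *Mrpl3*, a counterpart of bacterial L3 near the peptidyl transferase centre, with 12.7 ± 3.38 FPKM in WT and 13.7 ± 2.21 FPKM in Homo. The most variable was *Mrps23*, a mitochondria-specific small subunit gene, which stood at 92.2 FPKM in Homo 1 while the remaining 11 libraries spanned 6.11 to 21.8 FPKM.

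Libraries differed from each other over the whole family. The mean log2(FPKM + 1) over the 76 members was 4.67, 4.59, 3.93, 4.38 and 4.36 in WT 1 to WT 5. In Homo it ranged from 4.28 in Homo 3 to 4.75 in Homo 5, with a median of 4.60. WT 3 was thus the lowest of all 12 libraries and Homo 3 the lowest of its genotype, and the genotypes overlapped. WT 3 held the lowest value of 33 members (43.4%), while over all genes tested it held or shared the lowest value of 20.1%. Homo 3 held the lowest value of 13 members (17.1%), and held or shared that of 28.5% of all genes tested. In the shares over all genes, a lowest value tied between libraries, such as 0, counts for each of them. No member was at 0, so the shares of members and of all genes are not alike. Neither WT 3 nor Homo 3 held the highest value of any member. Means over the members were 4.39 ± 0.287 in WT and 4.58 ± 0.147 in Homo (SD, n = 5 and 7), and without WT 3 the WT mean was 4.501 ± 0.153. The same mean over all genes tested was 3.11 ± 0.106 in WT and 3.08 ± 0.124 in Homo. In bulk tissue, fewer cells of a type and less RNA per cell cannot be told apart.

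Small subunit genes averaged 4.32 ± 0.305 in WT and 4.45 ± 0.191 in Homo on this log2 scale, and large subunit genes averaged 4.43 ± 0.276 and 4.65 ± 0.124. Large subunit genes lay above small subunit genes in each of the 12 libraries, by 0.0219 to 0.154 in WT and by 0.0739 to 0.320 in Homo. The mean excess was 0.105 ± 0.0514 in WT and 0.198 ± 0.0875 in Homo, and the ranges overlapped. Summed in FPKM, the 76 members reached 2273 ± 586 in WT and 2803 ± 309 in Homo.

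**Figure D2:**
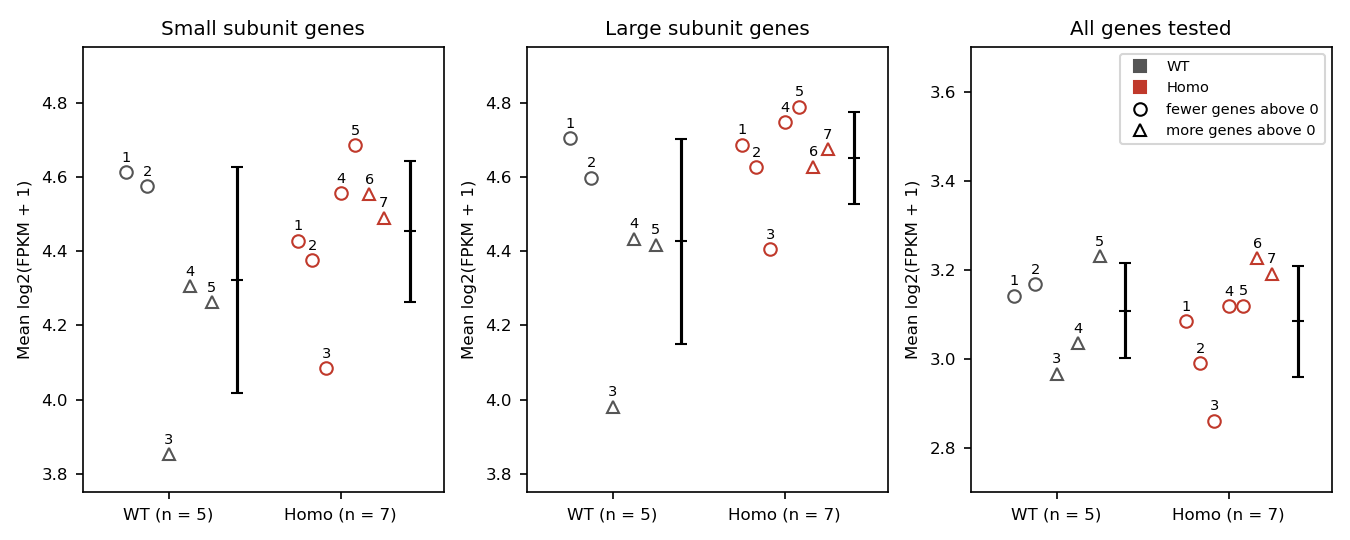
Mean log2(FPKM + 1) over the 29 small subunit genes, the 47 large subunit genes and all 14017 genes tested, for each WT (grey) and Homo (red) library labelled by its number, with circles for libraries with fewer genes above 0, triangles for those with more, and bars for the mean ± SD. WT 3 lies lowest in both subunits, at 3.85 and 3.98, and the vertical axes do not start at 0.

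The first question was whether any member differed between Homo and WT. Values were compared as log2(FPKM + 1), which understates changes of low genes, with limma and Benjamini-Hochberg adjustment over all 14017 genes. No member had an adjusted p under 0.05, the smallest being 0.666 for *Mrpl14*. Over all genes 1 passed (0.00713%). An unadjusted p under 0.05 was reached by 11 members, 4 of 29 small and 7 of 47 large subunit genes, and all 11 had the higher mean in Homo. These are 14.5% of the members, where 3.05% of all genes tested had an unadjusted p under 0.05 with the higher mean in Homo. No member had one with the lower mean in Homo, where 2.5% of all genes did. Without WT 3 the count of 11 became 5, without WT 2 it became 19 and without WT 4 it became 7, and adding the library set as a term gave 7.

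In direction, 54 of the 76 members (71.1%) had a higher mean in Homo, 19 of 29 in the small subunit and 35 of 47 in the large, beside 49.3% of all genes tested. Without WT 3 it was 44 of 76. The median log2 fold change was 0.21 over the members, 0.038 over the small and 0.23 over the large subunit genes, and -0.0062 over all genes tested. Without WT 3 these medians were 0.13, -0.029, 0.17 and -0.047. For 2 gene groups of related function, the median was 0.45 for the cytosolic ribosomal protein genes and 0.40 for the nuclear complex I genes. Without WT 3 these were 0.27 and 0.22, and among the libraries with fewer genes 0.085 and -0.021. In no member did the 7 Homo libraries all lie above or all lie below the 5 WT libraries. Such a gap was also rare over all genes, at 0.128% with Homo higher and 0.0927% with Homo lower, so its absence does not set the members apart.

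**Figure D3:**
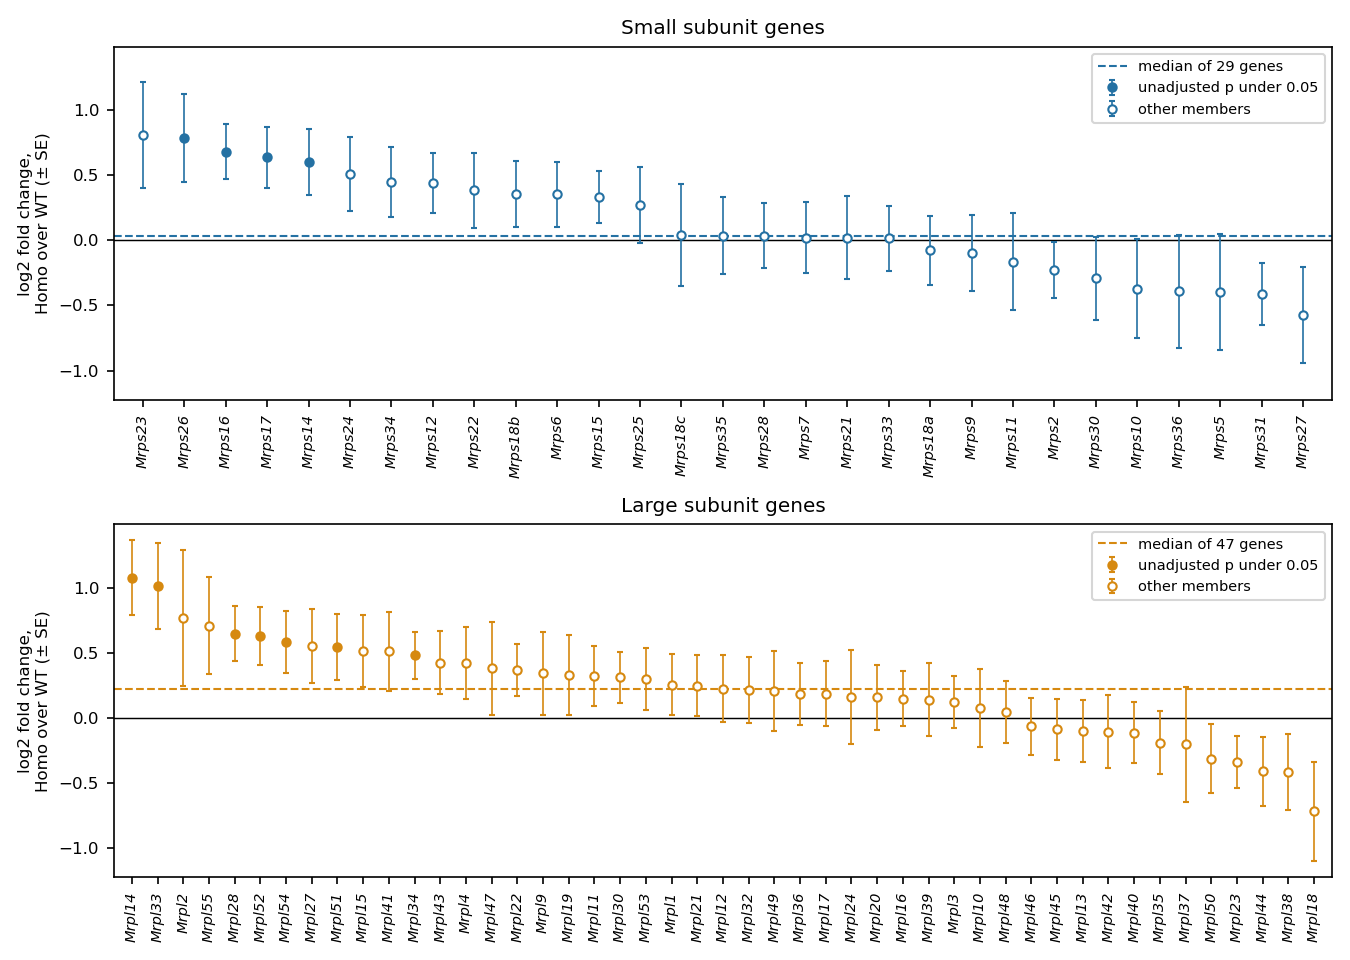
Log2 fold change of Homo over WT on the log2(FPKM + 1) scale, with its standard error from limma, for each small subunit gene (top) and large subunit gene (bottom), ordered by size. Filled points mark the 4 small and 7 large subunit genes with an unadjusted p under 0.05, none of which passed the adjustment, and dashed lines mark the medians of 0.038 and 0.23.

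Among large subunit genes, *Mrpl14* had the smallest p. It encodes the counterpart of bacterial L14 on the face that meets the small subunit, where an assembly factor binds. It was listed at 25.05, 49.8, 20.8, 25.1 and 17.7 FPKM in the 5 WT libraries in numerical order, and at 36.6 (lowest), 56.4 (median) and 94.8 FPKM (highest) in Homo. WT 2 lay inside the Homo range and the other 4 WT libraries below it. Its log2 fold change was 1.08 ± 0.29 (SE, limma unadjusted p = 0.0020, adjusted p = 0.666), and p = 0.0101 when the 12 libraries were permuted in all 792 ways (exact, two-sided, with 0.0013 as the smallest value within reach). Within the sets it was 0.81 (fewer genes) and 0.95 (more genes).

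*Mrpl33*, a short protein with a bacterial counterpart, stood at 144, 111, 39.2, 78.9 and 53.3 FPKM in the WT libraries and at 101 to 284 FPKM in Homo, with a median of 145. All 7 Homo libraries exceeded the WT median, and WT 1 and WT 2 lay within the Homo range. Its log2 fold change was 1.01 ± 0.33 (SE; limma adjusted p = 0.783 and exact permutation p = 0.0253). Within the library sets it was 0.33 and 1.40, and without WT 3 it was 0.78. *Mrpl28*, which also has a bacterial counterpart, showed the reverse order of the sets. WT values of 21.6, 24.0, 22.1, 31.1 and 28.1 FPKM faced 23.6 to 56.2 FPKM in Homo with a median of 43.5, and its log2 fold change of 0.65 ± 0.21 (SE; limma adjusted p = 0.783 and exact permutation p = 0.0152) came to 1.00 among libraries with fewer genes and 0.021 among those with more.

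*Mrpl52* combined the highest level with one of the 11 small p-values. It was listed at 306, 286, 124, 227 and 156 FPKM in WT and at 266 to 418 FPKM in Homo, with a median of 306. WT 1 and WT 2 were at the level of Homo, and the 3 WT libraries with more genes lay below every Homo library. The log2 fold change was 0.63 ± 0.22 (SE; limma adjusted p = 0.813 and exact permutation p = 0.0152), with 0.17 and 0.84 in the sets and 0.45 without WT 3. *Mrpl34*, again of bacterial descent, was at 56.9, 53.9, 30.9, 42.4 and 43.1 FPKM in WT and at 48.9 to 75.1 FPKM in Homo, with a median of 64.4. Its log2 fold change was 0.48 ± 0.18 (SE; limma adjusted p = 0.854 and exact permutation p = 0.0101). *Mrpl54* and *Mrpl51*, both specific to mitochondrial ribosomes, had log2 fold changes of 0.58 and 0.55, with 34.5 ± 7.25 against 53.9 ± 19.0 FPKM and 24.6 ± 8.55 against 35.0 ± 7.85 FPKM in WT and Homo (exact permutation p = 0.0417 for each). Without WT 3 that of *Mrpl51* was 0.30.

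In the small subunit, *Mrps16*, of bacterial descent and known as a human disease gene of mitochondrial translation, had the smallest p. It was listed at 26.9, 32.8, 22.8, 31.3 and 23.3 FPKM in WT and at 28.8, 51.4 and 59.4 FPKM (lowest, median and highest) in Homo. Only Homo 3 and Homo 6 lay within the WT range. Its log2 fold change was 0.68 ± 0.21 (SE; limma adjusted p = 0.763 and exact permutation p = 0.0126), and both library sets gave a higher mean in Homo, by 0.71 and 0.39. *Mrps17* and *Mrps14*, counterparts of bacterial S17 and S14, gave unlike values in the library sets. *Mrps17* was at 37.7, 29.1, 15.0, 13.7 and 22.1 FPKM in WT and at 26.8 to 40.5 FPKM in Homo with a median of 36.1, and *Mrps14* at 71.5, 70.9, 27.7, 34.6 and 36.3 FPKM in WT and at 52.1 to 91.2 FPKM in Homo with a median of 63.0. In both, WT 1 and WT 2 were at the level of Homo and WT 3, WT 4 and WT 5 were lower than every Homo library. The log2 fold change of *Mrps17* was 0.64 overall (limma adjusted p = 0.854), 0.089 with fewer genes and 0.96 with more, and that of *Mrps14* was 0.60 (limma adjusted p = 0.899), -0.0056 and 0.90. *Mrps26*, a mitochondria-specific small subunit gene, was at 36.5, 28.2, 10.05, 16.3 and 12.5 FPKM in WT and at 21.6 to 65.3 FPKM in Homo, with a median of 30.2. Its log2 fold change was 0.79 (limma adjusted p = 0.899, exact permutation p = 0.0682), with 0.13 with fewer genes, 1.03 with more and 0.58 without WT 3.

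**Figure D4:**
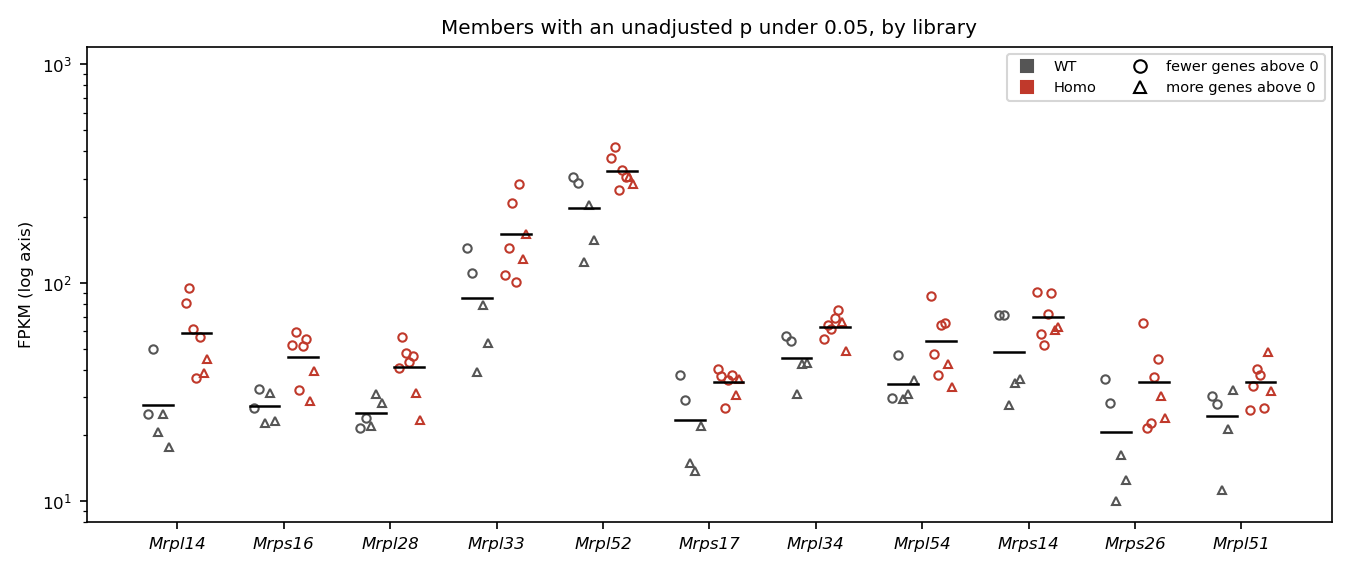
FPKM (log axis) of the 11 members with an unadjusted p under 0.05 in each of 5 WT (grey) and 7 Homo (red) libraries, ordered by p, with circles for libraries with fewer genes above 0, triangles for those with more, and bars at the group means. Every gene has WT and Homo libraries at the same level, and in all but *Mrps16*, *Mrpl28*, *Mrpl54* and *Mrpl51* the WT libraries drawn as triangles lie below every Homo library.

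Some differences as large came with too much spread to reach this threshold. *Mrps23* had a log2 fold change of 0.81 (standard error 0.41, exact permutation p = 0.0745), which was 0.48 without Homo 1. *Mrpl2*, a counterpart of bacterial L2 at the peptidyl transferase centre, was at 37.7, 35.5, 23.4, 56.9 and 17.7 FPKM in WT. In Homo it ranged from 8.96 FPKM in Homo 3 to 126 FPKM in Homo 1, with a log2 fold change of 0.77 (standard error 0.52, exact permutation p = 0.223) and 1.18 without Homo 3.

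In the other direction, the members with the largest negative fold changes were *Mrpl18*, *Mrpl38* and *Mrpl44* in the large subunit and *Mrps27*, *Mrps31* and *Mrps5* in the small. *Mrpl18*, a counterpart of bacterial L18, was at 78.6, 29.8, 48.8, 30.4 and 53.3 FPKM in WT and at 12.7 to 56.9 FPKM in Homo, with a median of 22.1. Homo 4, Homo 6 and Homo 7 were within the WT range, and the other 4 Homo libraries were below it. Its log2 fold change of -0.72 (standard error 0.38, exact permutation p = 0.120) came to -1.10 among libraries with fewer genes and 0.043 among those with more. *Mrpl44*, which has the fold of a ribonuclease III, was steady in WT at 8.09 ± 0.323 FPKM and scattered in Homo at 6.32 ± 3.02 FPKM (log2 fold change -0.41, exact permutation p = 0.139). *Mrpl38* had a log2 fold change of -0.42, and *Mrps27* one of -0.57 with 5.46 ± 2.71 against 3.46 ± 2.19 FPKM in WT and Homo. For *Mrps31*, 7 of 7 Homo libraries lay below the WT median, at 6.48 to 13.7 FPKM against 7.06 to 16.5 FPKM (log2 fold change -0.41, exact permutation p = 0.104). That of *Mrps5*, -0.40, was 0.0055 without WT 1, whose 38.3 FPKM compared with 4.31 to 13.8 FPKM in the other WT libraries.

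Further members were read for their known roles. *Mrps12* was at 105, 155, 54.8, 128 and 105 FPKM in WT and at 93.5 to 168 FPKM in Homo (log2 fold change 0.44, exact permutation p = 0.0871), and 0.21 without WT 3. *Mrpl12*, whose product forms the stalk that recruits translation factors, averaged 24.5 ± 12.3 FPKM in WT against 26.7 ± 4.43 in Homo (log2 fold change 0.23, exact permutation p = 0.388), with 0.025 without WT 3 and -0.27 among the libraries with fewer genes. *Mrpl11*, at the base of that stalk, was at 7.67 ± 1.90 and 9.93 ± 2.60 FPKM (0.32, p = 0.165 by the same exact test). *Mrps7*, which binds the RNA of the small subunit, had a log2 fold change of 0.022 and *Mrps22*, another human disease gene, one of 0.38, with standard errors of 0.27 and 0.29. The paralogs *Mrps18a*, *Mrps18b* and *Mrps18c*, all derived from bacterial S18, were at 32.7 ± 10.6, 12.2 ± 4.31 and 68.3 ± 44.2 FPKM over the 12 libraries. Their log2 fold changes were -0.077, 0.36 and 0.044, none beyond 1.5 standard errors. *Mrps18c* reached 193 FPKM in Homo 5, where the other 11 libraries lay between 24.98 and 95.8 FPKM.

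The library sets were then compared with each other, with genotype in the same model. No member had an adjusted p under 0.05 for the set (limma, smallest 0.264), beside 0.143% of all genes that were lower and 0.0357% that were higher in the libraries with more genes. An unadjusted p under 0.05 was reached by 11 members, all of them lower with more genes (14.5% of the members, beside 3.97% of all genes tested), and none was higher, beside 4.44% of all genes. In direction, 53 members (69.7%) had the lower mean in the libraries with more genes, 21 of 29 small and 32 of 47 large subunit genes, beside 45.9% of all genes tested. *Mrpl12* had the smallest p for the set, with a mean of 31.2 FPKM in the 7 libraries with fewer genes and 18.3 FPKM in the 5 with more (log2 difference -0.74, standard error 0.20, limma unadjusted p = 0.0020). *Mrpl53* and *Mrpl46* followed, with log2 differences of -0.58 and -0.53. On the other side stood *Mrpl37* (0.78), *Mrpl1* (0.40) and *Mrpl39* (0.47), with unadjusted p-values of 0.0976, 0.102 and 0.114 from limma.

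Genotype differences were also read within each set. Among the libraries with fewer genes, 35 of 76 members had the higher mean in Homo (46.1%, beside 40.1% of all genes tested) and the median log2 fold change was -0.014, with -0.0078 for the small and -0.015 for the large subunit. With more genes it was 63 of 76 members (82.9%, beside 64.6% of all genes), with medians of 0.37, 0.41 and 0.34. The medians over all genes tested were -0.081 and 0.13. The sign was positive in both sets for 31 members and negative in both for 9, among them *Mrps5*, *Mrps27*, *Mrps30*, *Mrpl38*, *Mrpl44* and *Mrpl46*. With more genes, the values of *Mrps30* (-0.022) and *Mrpl44* (-0.00039) were near 0. The sign was opposite for 36. The difference itself was tested as the product of genotype and set, a term added after the data were examined. No member had an adjusted p under 0.05 for it (smallest 0.876, limma). An unadjusted p under 0.05 was reached by 10 members (13.2%), beside 5.18% of all genes tested, and 60 members (78.9%) had the more positive fold change in the libraries with more genes, beside 66.6% of all genes. The smallest p was that of *Mrpl28*, whose product was -0.98. Those of *Mrps14* (0.91), *Mrps17* (0.87) and *Mrpl53* (0.79) were also among the 10. WT 3 belongs to the set with more genes, where it is 1 of 3 WT libraries.

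**Figure D5:**
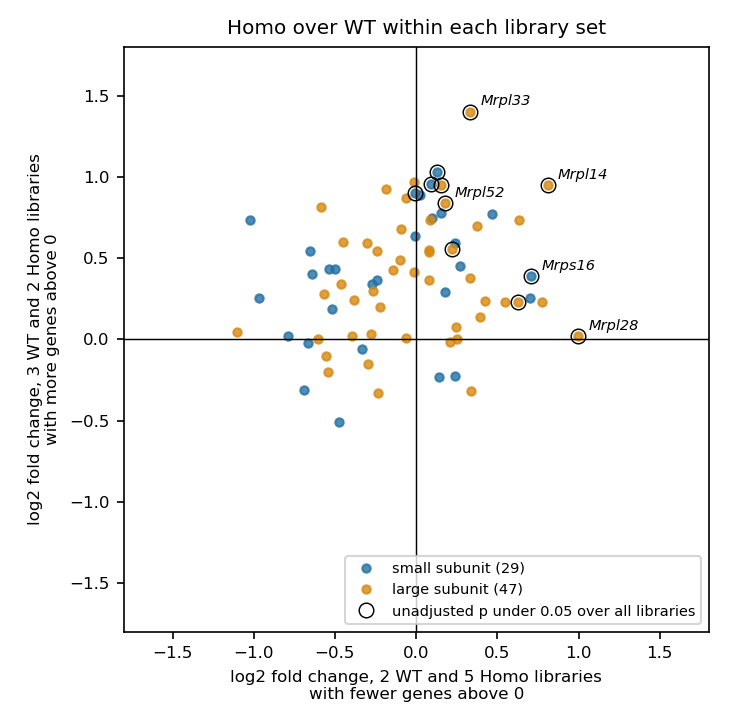
Log2 fold change of Homo over WT for each of the 76 members in the 7 libraries with fewer genes above 0 (horizontal) against that in the 5 libraries with more (vertical), for small (blue) and large (orange) subunit genes. Black rings mark the 11 members with an unadjusted p under 0.05 over all libraries, and most points lie above the horizontal line at 0 while they fall on both sides of the vertical one.

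Markers of other cells differed between libraries. The 6 microglia markers summed to between 28.0 and 44.8 FPKM in WT and between 41.7 and 71.8 FPKM in Homo, and the 5 tanycyte markers to between 23.0 and 64.9 FPKM in WT and between 4.59 and 36.8 FPKM in Homo, with overlap in each case. Pituitary and blood markers stood apart in 3 libraries of the set with more genes. The 6 pituitary markers summed to 117, 68.4 and 56.4 FPKM in WT 3, WT 5 and Homo 7, and to 0 to 11.8 FPKM elsewhere, and the 5 blood markers to 400.5, 590.0 and 355 FPKM in the same libraries and to 42.4 to 133 FPKM elsewhere. WT 3, the library with the lowest level of the members, had the lowest sum of arcuate neuron markers and the highest of pituitary markers. The mean log2(FPKM + 1) over the members was 4.36 in WT 5 and 4.60 in Homo 7. It was 4.38 in WT 4, where the pituitary markers summed to 0.922 FPKM. No marker of these 5 lists was at 0 in every library. The part of cell makeup in the members' values was not tested.

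Genes that act with the members were read from the same limma fit. Of 7 further mitoribosomal proteins named otherwise, 5 had the higher mean in Homo, and 3 without WT 3. Over all genes tested 49.3% had the higher mean in Homo, and 3.05% had it with an unadjusted p under 0.05. *Gadd45gip1*, whose product lies near the peptide exit of the large subunit, had the only such p among the 7. It was at 2.45 to 4.08 FPKM across WT libraries against 4.47 to 9.35 across Homo libraries. Its genotypes did not overlap, beside 0.128% of all genes tested that had no overlap with Homo higher. Its log2 fold change was 0.74 (SE 0.22, limma adjusted p = 0.757 and exact permutation p = 0.0013, the smallest possible). Its values were 0.63 and 0.82 within the library sets. The other proteins included the GTP-binding *Dap3*, at 41.3 ± 15.6 and 43.1 ± 14.7 FPKM in WT and Homo.

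Among 23 tested factors of ribosome assembly, 17 had the higher mean in Homo, beside 49.3% of all genes tested, with a median log2 fold change of 0.17. Without WT 3 it was 13 with a median of 0.060. The RNA-binding *Fastkd2* (1.18) and the rRNA methyltransferase *Mrm1* (0.96) were higher and the rRNA methyltransferase *Tfb1m* (-0.75) lower in Homo. Each had an unadjusted p under 0.05, beside 3.05% of all genes tested for higher and 2.5% for lower means, and a limma adjusted p of 0.899. Exact permutation gave p = 0.0909, 0.0694 and 0.0568, and *Fastkd2* was at 11.3 ± 11.9 FPKM in WT and 18.7 ± 7.40 in Homo. Lists of mitochondrial translation factors and of tRNA synthetases were also read. Of 15 genes in the first, 11 had the lower mean in Homo (median log2 fold change -0.23), and of 17 in the second, 12 (median -0.17). Over all genes tested, 7105 of 14017 had the lower mean. None of these listed genes had an unadjusted p under 0.05 from limma, and without WT 3 the medians were -0.26 and -0.22. Exact permutation gave p = 0.045 for *Taco1* (log2 fold change -0.47) in the first list and p = 0.0404 for *Ears2* (-0.50) in the second. Not translation factors in the strict sense are *Oxa1l*, *Lrpprc* and *Slirp* in the first list, all higher in Homo. *Qrsl1* and *Gatc* in the second are not synthetases. For mitochondrial transcription, 4 of 5 genes had the higher mean in Homo, also without WT 3. *Polrmt*, the mitochondrial RNA polymerase, was measured at 11.6 ± 5.29 FPKM in WT against 23.6 ± 10.7 in Homo, and *Tfam*, which packages mitochondrial DNA, at 5.04 ± 2.15 and 9.94 ± 5.33 FPKM. Their log2 fold changes were 0.91 and 0.81 (limma adjusted p = 0.899 for both, exact permutation p = 0.0922 and 0.0732). *mt-Rnr1* and *mt-Rnr2*, the RNAs of the mitochondrial ribosome, were listed at 0 in all 12 libraries. A listed 0 does not show that these RNAs were absent from the tissue, and its cause was not tested.

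Members also shared features that do not depend on these libraries. In GENCODE release M21 on GRCm38, 75 of the 76 identifiers were found, on 17 chromosomes, with 10 on chromosome 11. The longest coding transcript of a member had a median length of 1316 bases, beside 3225 bases over 11969 tested protein-coding genes, and 60 of the 75 were shorter than the latter. For 17 members (22.4%), a protein-coding gene on the opposite strand was annotated to start at most 1000 bases upstream, beside 9.88% of the tested genes. Opposite-strand pairs whose starts lie inside each other, such as *Mrps11* and *Mrpl46*, are not in this count. *Mrps12*, for example, starts 172 bases from *Sars2*, which encodes the mitochondrial seryl-tRNA synthetase. In all, 25 members (32.9%, beside 25.5%) overlap a protein-coding gene, *Mrpl14* and *Mrpl18* among them, and values of overlapping genes cannot be separated here. Across the members, shorter genes had higher levels (Spearman -0.43 between length and mean FPKM over 75 genes), and higher genes had more positive fold changes (Spearman 0.45 over 76). These are descriptions across genes, which share libraries and are not replicates.

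Promoter sequences from RefSeq (GRCm38.p6, 250 bases before to 50 after the start) were matched for 67 members. ETS factors such as GABP, NRF1, YY1 and SP1 are known regulators of nuclear genes for mitochondrial proteins. An ETS core (CCGGAAG, either strand) was present in 23 member promoters (34.3%), beside 9.12% of all 27025 promoters and 17.7% of the 9012 promoters of tested genes. The YY1 core (AAGATGGC) was present in 12 (17.9%, beside 2.88% and 4.75%), and an NRF1 core (GCATGCGC) in 8 (11.9%, beside 2.80% and 5.53%). A GC box (GGGCGG) was found in 33 (49.3%, beside 35.9% and 65.5%) and TATAAA in 4 (5.97%, beside 14.2% and 6.52%). By subunit, the NRF1 core was in 1 of 26 small and 7 of 41 large subunit promoters, and the ETS core in 11 and 12. Of the 10 promoters that belong to members with an unadjusted p under 0.05, 6 held the ETS core, 6 the GC box, 1 the NRF1 core and none the YY1 core. These matches are letters in a window and not measured binding.

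The 100 bases before the RefSeq start are shown for 4 members with an unadjusted p under 0.05 and for *Mrps22* and *Mrps12*, among those whose stretch holds no annotated exon. *Mrpl52* (chr14:54426809-54426908, plus strand) and *Mrpl34* (chr8:71464826-71464925, plus strand) hold an ETS core, as does *Mrps22* (chr9:98601680-98601779, minus strand). *Mrps14* (chr1:160195115-160195214, plus strand) and *Mrps17* (chr5:129715397-129715496, plus strand) hold a GC box, and *Mrps12* (chr7:28741822-28741921, minus strand) holds none of these letters in its stretch. Each is written 5′ to 3′ on the gene's strand with ETS cores and GC boxes in capitals.
Mrpl52: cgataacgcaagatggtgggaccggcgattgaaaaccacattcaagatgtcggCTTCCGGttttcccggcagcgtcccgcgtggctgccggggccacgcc
Mrpl34: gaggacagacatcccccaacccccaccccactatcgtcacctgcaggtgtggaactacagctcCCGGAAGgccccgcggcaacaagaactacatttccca
Mrps22: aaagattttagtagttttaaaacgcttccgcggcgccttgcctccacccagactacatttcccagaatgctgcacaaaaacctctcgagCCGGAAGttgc
Mrps14: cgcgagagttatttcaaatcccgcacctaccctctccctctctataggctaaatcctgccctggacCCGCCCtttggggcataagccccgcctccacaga
Mrps17: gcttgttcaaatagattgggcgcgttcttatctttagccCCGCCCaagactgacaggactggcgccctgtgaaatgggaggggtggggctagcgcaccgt
Mrps12: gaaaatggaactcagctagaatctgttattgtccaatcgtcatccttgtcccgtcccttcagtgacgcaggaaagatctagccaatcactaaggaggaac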

How the data were processed

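RNA of the laser-captured ARC was amplified and sequenced (Illumina HiSeq), and the authors deposited 1 FPKM value per gene and library. The submitters' processing notes name TopHat2 2.0.8, Cufflinks 2.2.1 and GRCm38, and further scaling of the libraries is not given in the sources used here. All 12 columns were matched to mice by genotype and number (0 left over). FPKM are not counts, so log2(FPKM + 1) of the 14017 genes with a mean of at least 1 FPKM was fitted with limma 3.58.1 in R 4.3.3 (trended, robust variances; genotype as the only term; Benjamini-Hochberg adjustment), and single genes also by exact permutation over 792 draws of 5 libraries. On simulated data with 200 changed genes among 14017, 10.5%, 77% and 87.5% of them were called at log2 changes of 1, 2 and 3. Among the unchanged genes of these runs 1, 11 and 12 were called, and in a run without any change none was. Values were drawn independently for each gene, so shifts shared by a whole library were not simulated.

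The members, gene lists and library sets were chosen with earlier results of these data known. The members named are those with an unadjusted p under 0.05, the 3 largest changes each way and the 3 highest and 3 lowest levels in each subunit, the 3 smallest set p-values each way, and members of known role; *Mrpl28* is singled out for its product term after its values were seen. Lists name up to 3 genes of smallest p, and *Dap3* was added after its values were seen. Same-numbered libraries of the genotypes did not deviate together (correlations -0.054 to 0.029), so numbers do not pair mice. Reads shared between overlapping genes or with processed copies (*Mrpl23-ps1* averaged 13.4 FPKM) cannot be assigned from FPKM.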

Additional observations from a re-analysis of the deposited data

Results flagged for a closer look

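In 82 groups of WT or Homo libraries examined (members named in the text and the subunit means), 4 held 1 library far from the others of its genotype, where chance alone gives about 1 in 20. *Mrps12* was at 93.5 FPKM in Homo 3 and at 139 to 168 FPKM in the other 6 Homo libraries. *Mrpl2* was at 8.96 FPKM in Homo 3 and at 45.3 to 126 FPKM in the others. The mean log2 value of the large subunit genes was 4.40 in Homo 3 and 4.63 to 4.79 in the others. *Mrps23* was at 92.2 FPKM in Homo 1 and at 14.4 to 21.3 FPKM in the others.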

How the results depend on the processing

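Alternatives were a pseudocount of 0.1, other filters, quantile and upper-quartile scaling, array weights, the library set as covariate, a replicate block, each library left out and each set alone; those for the product term, the count of higher means and the members called for the set were added after the data were examined. With 1 gene called between genotypes over all genes, the replicate block gave 2, the libraries with fewer genes 6, those with more 19, and leaving out a library 1 to 3. The 11 members higher at an unadjusted p under 0.05 became 7 with the set as covariate, 2 with fewer genes and 5 to 19 with a library left out. The 0 lower became 2 under the replicate block, 2 with fewer genes and 0 to 1. The 54 members with a higher mean became 35 with fewer genes. The small subunit median was 0.41 with more genes, and the large -0.015 with fewer. For the library set 25 genes were called, and 14 to 21 with a library left out. For the product 6 genes were called, 2 with a filter of 5 FPKM, 27 with none, 1 with the smaller pseudocount and 6 to 56 with a library left out. *Mrps5* turned to 0.0055 without WT 1 (range from -0.72), *Mrps14* to -0.0056 with fewer genes, *Mrps31* to 0.020 and *Mrpl18* to 0.043 with more. The causes were not tested. The other 653 values of named members kept their direction and stayed within the replicate spread or on their side of the adjusted threshold. Under the replicate block the 11 became 13, and of the named members *Mrpl33* (unadjusted p = 0.0565) and *Mrpl51* (0.186, both from limma) left them, *Mrps23* (0.0457) joined them, and the 2 lower were *Mrpl18* (0.0374) and *Mrps27* (0.0219). The block changed no other call of a named member. In it Homo 6 and Homo 7 have no WT library of the same number, so they add nothing to its genotype difference. Depth is unknown.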
